A study of Homo sapiens with 18 samples.

Results

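SPINK1 is described here in HepG2, a human cell line established from a liver carcinoma, as 1 array feature of the 20546 features that carried a gene symbol. The feature, transcript cluster 8114964, was found by its annotation to SPINK1 alone. The gene was selected on the measured vehicle levels, for the very large difference between the pools that carry a thyroid hormone receptor and the control pool, so those levels are a description with no test. The 3 cell populations were stable HepG2 transformants obtained by G418 co-selection. The TRa1 pool carried an expression plasmid for thyroid hormone receptor alpha 1 and combined 6 independent clones. The TRb1 pool carried a plasmid for thyroid hormone receptor beta 1 and combined 12 clones. The control pool carried the empty plasmid and combined 11 clones. Every pool was exposed for 6 h to 100 nM triiodothyronine (T3), the form of thyroid hormone that the receptors bind, or to the ethanol carrier alone, called vehicle, in medium with 10% hormone-stripped fetal bovine serum. Each of the 6 combinations was measured on 3 arrays, 18 in all, described in the labels as independent biological repeats. There was 1 pool per construct, so a difference between pools cannot be told apart from a difference between the clones in them, and the p-values below measure the spread between repeats of the same pools.

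SPINK1 encodes a small secreted inhibitor of the Kazal type that blocks trypsin by filling its active site. Acinar cells of the pancreas make it together with the digestive zymogens and so limit trypsin that is activated too early. The same protein is made in the mucosa of the gut and by many tumours, where it is also known as tumour-associated trypsin inhibitor. In liver cells it is known as an acute phase gene that interleukin 6 can induce, and the protein is reported to bind the epidermal growth factor receptor. Thyroid hormone receptors are nuclear receptors that bind DNA with or without hormone, often as dimers with retinoid X receptors, and T3 switches their partners from corepressors to coactivators.

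The stretch around the annotated start of SPINK1 is shown because it is the DNA nearest to the transcript that differed between the pools. It covers the 250 bases before and the 50 bases after the start in RefSeq, GRCh38.p14, chr5:147831622-147831921, minus strand. Capitals mark its 1 match to the palindrome TTCNNNGAA, the letters bound by STAT factors, which carry interleukin 6 signals to the nucleus.

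SPINK1 promoter: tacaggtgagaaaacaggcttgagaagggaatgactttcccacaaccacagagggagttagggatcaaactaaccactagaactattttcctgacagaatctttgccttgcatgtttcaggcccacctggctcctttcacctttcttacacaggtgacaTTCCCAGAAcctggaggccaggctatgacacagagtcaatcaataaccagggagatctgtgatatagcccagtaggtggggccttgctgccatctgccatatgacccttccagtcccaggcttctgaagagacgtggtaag

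Both strands were searched, and the matched letters TTCCCAGAA began at position -91 from the start. The same palindrome was present in 7.66% of the 35116 promoters of equal length. AGGTCA, the hexamer recognised by many nuclear receptors including the thyroid hormone receptors, had 0 matches in this window and was present in 13.8% of promoters. The direct repeat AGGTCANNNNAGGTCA, the classical thyroid hormone response element, had 0 matches and was present in 0.0199% of promoters. TATAAA had 0 matches against 11.5% of promoters. These letters say nothing of sites outside the window or of other start sites of the gene.

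Levels are the authors' deposited log2 values after robust multi-array averaging (RMA), on which a difference of 1 is a 2-fold difference. Array medians over all features lay between 5.31 and 5.49. In the control pool on vehicle SPINK1 measured 5.38, 3.50 and 3.90 in replicates 1, 2 and 3, a mean of 4.26 ± 0.99 (SD, n = 3). In the control pool on T3 it measured 5.25, 4.12 and 4.14, a mean of 4.51 ± 0.65 (SD, n = 3). Both control means lay below the array medians, with replicate 1 the highest array of each group and, on vehicle, within the range of those medians. Whether the control arrays held SPINK1 signal above background was not tested. In replicates 2 and 3 their levels, 3.50 to 4.14, lay within or below the average ranges of other cell types' markers given below. Every fold here is therefore a ratio of array signals that include background and not a ratio of transcript amounts.

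In the TRa1 pool SPINK1 measured 10.19, 7.21 and 7.22 on vehicle, a mean of 8.20 ± 1.72 (SD, n = 3). On T3 the TRa1 pool measured 10.02, 7.23 and 7.35, a mean of 8.20 ± 1.58 (SD, n = 3). In the TRb1 pool the values were 9.85, 6.97 and 6.25 on vehicle, a mean of 7.69 ± 1.91 (SD, n = 3). All 12 arrays of the receptor pools lay above all 6 arrays of the control pool, on vehicle by the choice of the gene. On T3 the TRb1 pool measured 9.67, 7.03 and 6.47, a mean of 7.72 ± 1.71 (SD, n = 3). From high to low the means ran TRa1 vehicle, TRa1 T3, TRb1 T3, TRb1 vehicle, control T3 and control vehicle. The 4 receptor groups overlapped one another and the 2 control groups overlapped each other, so the order within each set rests on differences smaller than the spread of the arrays.

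**Figure D1:**
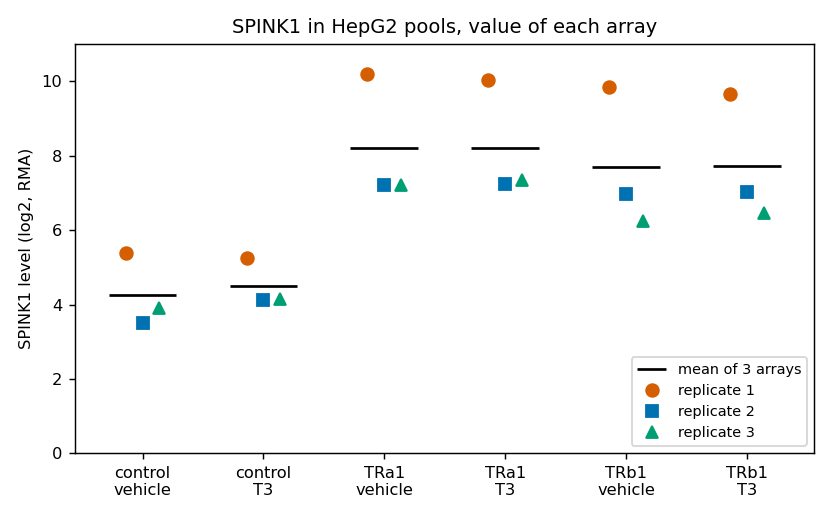
SPINK1 level (y axis, log2 RMA value) on each of the 18 arrays, by pool and treatment (x axis), with symbols for the replicate number and a bar at the mean of 3 arrays. The control arrays lie between 3.50 and 5.38 and the receptor arrays between 6.25 and 10.19, and replicate 1 is the highest array of every group.

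On vehicle the mean difference from the control pool was 3.94 for TRa1, a 15.4-fold difference of geometric means, and 3.43 for TRb1, 10.7-fold. Set against the control array of the same replicate number, the TRa1 arrays on vehicle were higher by 4.80, 3.71 and 3.32 on the log2 scale. The TRb1 arrays were higher by 4.47, 3.46 and 2.35. These are the values that chose the gene. Across the whole array 63 features (0.307%) passed an adjusted p of 0.05 between TRa1 and control on vehicle and 24 (0.117%) between TRb1 and control (limma, no block), from which nothing is read for SPINK1.

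The 9 arrays on T3 were not used to choose the gene. They measured the same pools again, so they are not independent of the vehicle arrays that chose it. There SPINK1 was higher than in the same-numbered control by 4.77, 3.11 and 3.20 in the TRa1 pool and by 4.41, 2.90 and 2.33 in the TRb1 pool. All 6 receptor arrays lay above all 3 control arrays. Within same-numbered pairs SPINK1 differed between T3 and vehicle by only -0.184 to 0.62, so the T3 differences largely repeat the vehicle ones. The mean of the receptor arrays was higher by 3.45 on the log2 scale (two-sided exact permutation test, p = 0.0238, which is the smallest p that 6 arrays against 3 allow). This test took the arrays of both receptor pools as 1 group and ignored the replicate number. The gene was chosen for the same difference on vehicle, so this p supports nothing on its own. With arrays exchanged only within a replicate number, the two-sided exact p was 0.0741, the smallest that 27 arrangements allow, so that form of the test could not reach 0.05.

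In the fit over all features the TRa1 pool on T3 was higher by 3.69 ± 1.07 (SE), a 12.9-fold difference, and the TRb1 pool by 3.21 ± 1.07 (SE), 9.28-fold. Without the replicate number in the model neither passed (limma, adjusted p = 0.267 and 0.966). With the number as a block the estimates stayed the same, their SE fell to 0.36, and both passed (limma, adjusted p = 2.67e-05 and 0.00031). The SE in every fit of this paragraph also rests on the vehicle arrays, which chose the gene. The T3 arrays came from the same pools, so none of these p-values is independent of that choice. Under the block the 95% confidence interval was 2.92 to 4.46 for TRa1 and 2.44 to 3.98 for TRb1. The share of all features that passed was 0.433% for TRa1 and 0.156% for TRb1 without the block, and 2.83% and 0.871% with it. Both differences also passed without the block once replicate 1 was left out, at 3.16 for TRa1 (limma, adjusted p = 0.000701) and 2.61 for TRb1 (limma, adjusted p = 0.00396). With the block and without replicate 2, the TRb1 difference missed the threshold (limma, adjusted p = 0.0576).

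**Figure D2:**
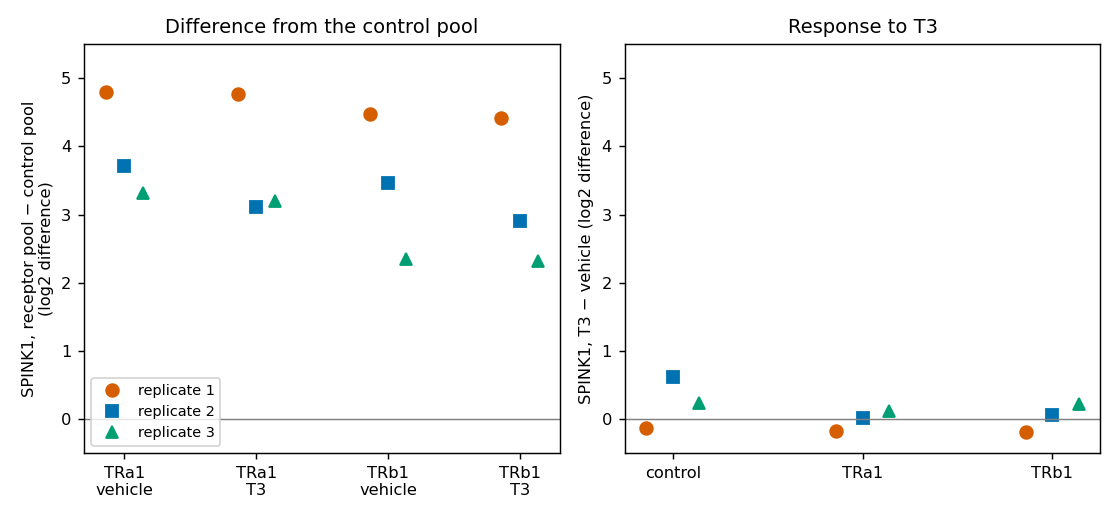
Left, SPINK1 in each receptor pool minus the same-numbered control array (y axis, log2 difference) on vehicle and T3; right, T3 minus vehicle within each pool on the same axis range. The differences from control run from 2.33 to 4.80, while the T3 responses run from -0.18 to 0.62.

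No feature had a larger difference than SPINK1. It ranked 1 of 20546 by mean difference, up or down, for TRa1 and for TRb1 against control on T3. It held the same rank on vehicle, where the gene was chosen for its large difference, so the vehicle ranks are no result. The T3 ranks come from the same pools and are not independent of that choice. The second feature in all 4 comparisons was H2BC12, which encodes a copy of histone H2B, with 3.27 for TRa1 and 2.77 for TRb1 on T3. The third for TRa1 on T3 was VCAN, the extracellular matrix proteoglycan versican, at 2.41. The third for TRb1 on T3 was PCK1, a gluconeogenic enzyme, at 1.59. Taken array by array, SPINK1 held rank 1 upward in 9 of the 12 comparisons of a receptor array with its same-numbered control. These 12 include the vehicle comparisons that chose the gene. In the other 3, all in replicate 2, it ranked 2, behind TAP2 once (TRa1, vehicle) and behind H2BC12 for both receptors on T3.

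**Figure D3:**
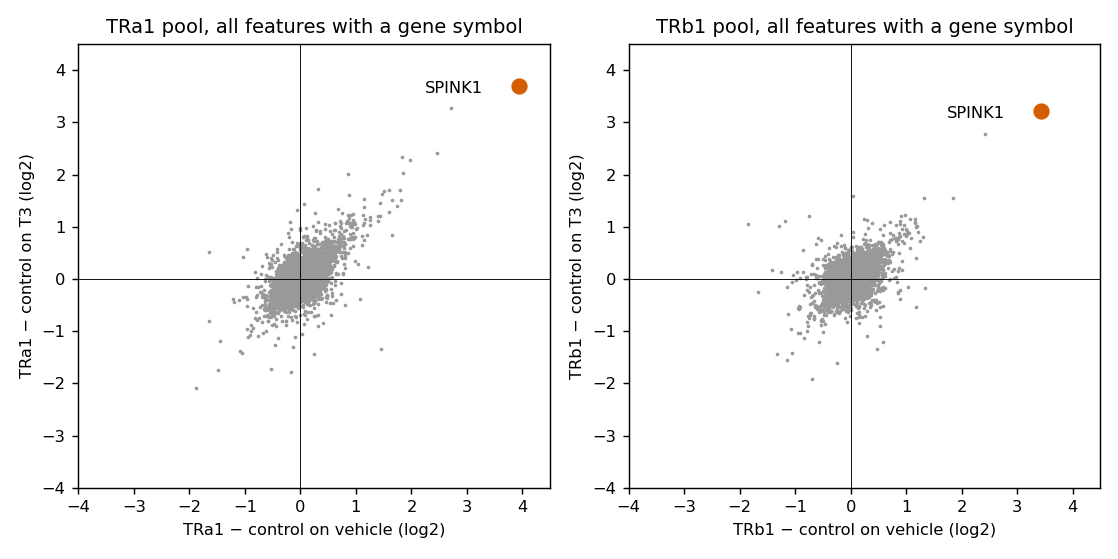
Mean log2 difference from the control pool on vehicle (x axis) against that on T3 (y axis) for each of the 20546 features with a gene symbol, one panel per receptor pool. SPINK1, marked in orange, is the point farthest from 0 on both axes, at 3.94 and 3.69 for TRa1 and at 3.43 and 3.21 for TRb1. Its vehicle difference chose the gene, so its place on the x axis is no result. Its place on the y axis comes from the same pools and is not independent of that choice.

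The receptor pools differed less from each other than either did from the control, on vehicle by the choice of the gene. SPINK1 was lower in the TRb1 array than in the TRa1 array of the same number in 6 of 6 pairs, with TRb1 minus TRa1 at -0.335, -0.242 and -0.967 on vehicle and at -0.353, -0.208 and -0.876 on T3. The vehicle and T3 pairs of a number came from the same pools and gave similar values, so the 6 are not independent comparisons. The mean difference was -0.51 on vehicle, 1.43-fold lower in TRb1, and -0.48 on T3, 1.39-fold lower. Neither passed with the block (limma, adjusted p = 0.853 and 0.827) or without it (limma, adjusted p = 1 for both). The vehicle arrays of both receptor pools took part in the choice of the gene. The vehicle test is therefore not independent of that choice and supports nothing on its own. The blocked 95% confidence intervals ran from -1.28 to 0.25 on vehicle and from -1.25 to 0.29 on T3, so they include both a clearly lower and a slightly higher level in TRb1. Between the receptor pools 0% of features passed on vehicle in limma without the block (593 at an unadjusted p under 0.05) and 0.54% with it, and on T3 0.0438% and 0.604%.

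The mean level of SPINK1 on T3 was close to that on vehicle in both receptor pools and slightly higher in the control. These responses share the vehicle arrays that chose the gene, so their tests are not independent of that choice and support nothing on their own. In the TRa1 pool the T3 array minus the vehicle array of the same number was -0.166, 0.023 and 0.128. In the TRb1 pool it was -0.184, 0.057 and 0.219, and in the control pool -0.131, 0.62 and 0.24. The mean responses were -0.01 for TRa1, 0.03 for TRb1 and 0.24 for control, and none passed with or without the block (limma, adjusted p from 0.961 to 1). The blocked 95% confidence intervals were -0.77 to 0.76 for TRa1, -0.74 to 0.80 for TRb1 and -0.53 to 1.01 for control. Over the same pools 27 features (0.131%) passed for the T3 response in TRa1, 15 (0.073%) in TRb1 and 2 (0.00973%) in control, without the block; with it the shares were 0.667%, 0.477% and 0.0973%.

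Averaged over the pools the response of SPINK1 was 0.09, with a blocked 95% interval of -0.35 to 0.53 (limma, adjusted p = 0.936). The level was higher on T3 in 6 of 9 pairs (exact sign-flip permutation test over pairs, two-sided, p = 0.348). The 3 pairs that were lower were the 3 of replicate 1, and the mean of the other 6 was 0.21, a value with no test. The response of the TRa1 pool minus that of the control was -0.25 and that of the TRb1 pool minus control was -0.21; both contain the vehicle contrast that chose the gene and carry no test. Between the receptor pools the responses differed by 0.04 (limma, adjusted p = 1 with and without the block), a contrast in which 0% of features passed either way (limma, 223 and, with the block, 619 at an unadjusted p under 0.05).

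The widest spread of SPINK1 within a group was between replicate 1 and the other repeats. Replicate 1 exceeded the mean of replicates 2 and 3 by 2.97 in the TRa1 pool on vehicle, 2.73 on T3, 3.24 in the TRb1 pool on vehicle and 2.92 on T3. In the control pool the excess was 1.68 on vehicle and 1.12 on T3. Replicates 2 and 3 were closer to each other, with replicate 2 minus replicate 3 between -0.40 and 0.72. This comparison was added after the values were seen. In a fit with group and number, SPINK1 was higher by 2.44 ± 0.22 (SE) in replicate 1, rank 21 upward of 20546. Much of the array differed in the same comparison: 11025 features (53.7%) passed, 3428 higher and 7597 lower, with a median of -0.11. The excess in the receptor pools was 1.57 ± 0.24 (SE) larger than in the control, a description with no test, since it uses the vehicle values that chose the gene. It also uses low control levels, and whether these were compressed was not tested. What the replicate number stands for beyond an independent repeat is not given in the labels.

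The pools were checked on the receptor genes. THRA, which encodes TRa1, measured 7.96, 8.22 and 7.71 in the TRa1 pool on T3 and 7.08, 6.77 and 7.18 in the control on T3, a difference of 0.95 ± 0.14 (SE) (limma, adjusted p = 0.0039). THRB, which encodes TRb1, was higher in the TRb1 pool than in the control on T3 by 0.35 ± 0.15 (SE) and did not pass (limma, adjusted p = 1 without and 0.22 with the block). On vehicle the THRA difference was 0.44 ± 0.14 (SE) and did not pass (limma, adjusted p = 0.533 without and 0.128 with the block). The feature for THRA also reads the cell's own transcript. The hepatocyte markers (10 genes, ALB, APOA1 and TTR among them) averaged 11.69 to 11.91 on every array. The pancreatic acinar markers measured (8 of 11 listed) averaged 4.44 to 4.78, and none passed between the pools. Markers of the gut mucosa averaged 5.48 to 5.69, of fibroblasts 4.54 to 4.84, of leukocytes 6.34 to 6.64 and of endothelium 3.95 to 4.31. On such arrays a low value is background plus any weak signal, so no marker can be called absent. The 8 markers of liver carcinoma and progenitors averaged 9.60 to 9.63 in the control on T3 and 8.97 to 9.25 in TRa1 and 9.03 to 9.29 in TRb1, and their part in the SPINK1 difference was not tested. With the block, 3 of these 8 fell in TRa1 (PROM1 by 2.09, GPC3 by 0.59 and AFP by 0.37) and 2 of 8 in TRb1 (PROM1 by 1.42 and GPC3 by 0.62), against 1.02% and 0.346% of all features lower. Of the hepatocyte markers TTR fell by 0.81 in TRa1, and passed without the block too (limma, adjusted p = 0.025), and ALB by 0.27. Of the other marker lists, CD14 rose by 0.60 and LYZ (leukocyte) and PDGFRB (fibroblast) fell by 0.47 and 0.38 in TRa1 with the block. CD14 also passed as higher on T3 than on vehicle within the TRa1 pool, with and without the block. On vehicle CD14 did not pass between TRa1 and control. In bulk RNA, fewer cells with a transcript and less transcript per cell cannot be told apart.

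Genes with a pattern like SPINK1 were ranked by Pearson r over the 18 arrays after the mean of each replicate number was subtracted. They come from 437 genes whose adjusted values had an SD of at least 0.3. The arrays share 3 pools, so every r mainly carries the step between the control and the receptor pools, and it is given without a test. PRKCH, protein kinase C eta, ranked first with r = 0.975. It measured 4.65, 5.01 and 4.96 in the control on T3, 5.95, 6.06 and 6.00 in TRa1 and 5.61, 5.79 and 5.58 in TRb1, so its groups did not overlap with the control. ERP27, an endoplasmic reticulum protein of the disulfide isomerase family, followed with 0.965, and then H2BC12 with 0.961, CPED1 with 0.959 and TUSC3, a subunit of the oligosaccharyltransferase complex, with 0.958.

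VCAN reached 0.943, MUC15, a membrane mucin, 0.935, RRAGD, a GTPase of the amino acid sensing pathway, 0.934, SULT1C2, a sulfotransferase, 0.933, and CES1P1, a carboxylesterase pseudogene, 0.931. VCAN measured 4.75, 5.27 and 5.34 in the control on T3, 7.08, 7.85 and 7.66 in TRa1 and 6.38, 7.06 and 6.57 in TRb1. H2BC12 measured 4.40, 3.51 and 4.19 in the control on T3, 7.61, 7.73 and 6.59 in TRa1 and 7.47, 6.90 and 6.05 in TRb1. H2BC12 has near-identical histone copies and CES1P1 resembles CES1, so the gene behind either signal is uncertain. Of the 10, 5 were shared with the ranking from the T3 arrays alone, 6 with that from the vehicle arrays alone, 5 with that without subtraction and 4 with that by Spearman's rho.

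The excess of SPINK1 in replicate 1 was larger than that of any of these 10 genes, a difference that was not tested. PRKCH was lower there by 0.14 and VCAN by 0.35, CPED1 was higher by 0.09 and CES1P1 by 0.15. H2BC12 was higher by 0.85, TUSC3 by 0.83 and ERP27 by 0.69, each less than the 2.44 of SPINK1.

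The most opposite patterns belonged to PCOLCE2, an enhancer of procollagen processing (r = -0.914), GPC3, the oncofetal proteoglycan glypican 3 (-0.903), PROM1, the stem cell marker CD133 (-0.889), DPYD, which breaks down pyrimidines (-0.886), and BICC1, an RNA-binding protein (-0.881). PROM1 measured 7.20, 7.41 and 7.47 in the control on T3, 5.22, 5.59 and 5.00 in TRa1 and 6.06, 5.78 and 5.99 in TRb1. GPC3 measured 11.78, 11.95 and 11.91 in the control on T3, 11.20, 11.47 and 11.20 in TRa1 and 11.41, 11.31 and 11.07 in TRb1. This end of the ranking was less stable: of the 5 genes, 1 was shared with the ranking by Spearman's rho, 1 with that without subtraction, 2 with that from the T3 arrays and 4 with that from the vehicle arrays, and r of PCOLCE2 was -0.318 without subtraction. PROM1 and GPC3 were both lower in every receptor array than in every control array on T3, and both belong to the carcinoma and progenitor markers whose mean is given above.

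**Figure D4:**
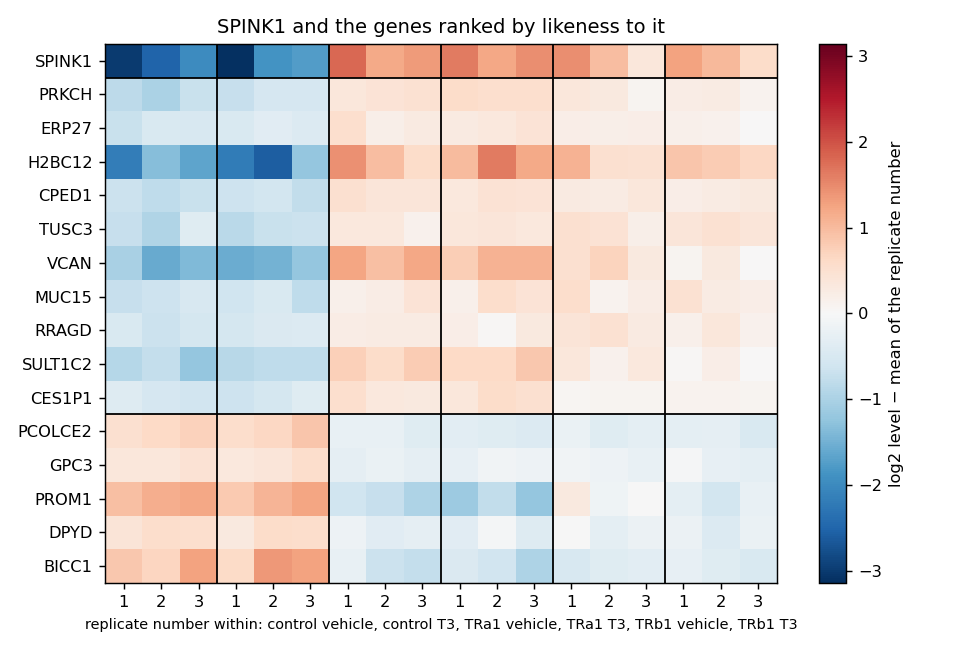
Levels of SPINK1, the 10 genes with the highest r to it and the 5 with the lowest, on the 18 arrays (columns, by group and replicate number), as log2 level minus the mean of the replicate number (colour). The high-ranking genes are low in the 6 control arrays and high in the 12 receptor arrays, the low-ranking genes the reverse, and SPINK1 has the widest range, with an SD of 1.79.

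Around SPINK1, 9 lists of related genes were set beside it, with 116 measured members apart from SPINK1 itself. On T3, 4 of these 116 passed between TRa1 and control without the block and 15 with it, against 0.433% and 2.83% of all features. Both counts include THRA, the gene that encodes the receptor on the TRa1 plasmid. Between TRb1 and control 2 passed without and 7 with the block, against 0.156% and 0.871%. The counts in the next paragraphs use the block, with the value without it where the call differs. Lists this short can give 0 or 1 call at the shares of all features, so such counts are not read as a result.

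None of the other SPINK genes, which encode Kazal inhibitors too, passed the test. The 6 measured (SPINK2, SPINK4, SPINK6, SPINK7, SPINK9 and SPINK14) differed from the control on T3 by -0.25 to 0.09 across both receptor pools, and 0 of 6 passed in either. Of the digestive proteases and their activators, the enzymes SPINK1 guards against, 12 were measured. In the TRb1 pool 0 passed, against 0.871% of all features, and in the TRa1 pool 1, against 2.83%. It was CTSB, the lysosomal protease cathepsin B, which can activate trypsinogen, higher by 0.52 ± 0.11 (SE) with the block (limma, adjusted p = 0.02); without the block no member passed. PRSS1, cationic trypsin and the main target of SPINK1, differed by -0.08 in TRa1 and 0.07 in TRb1. PRSS3, mesotrypsin, differed by 0.11 and 0.02. Neither passed.

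Of the receptors that trypsin-like proteases cleave, 3 were measured and 0 passed on T3. Among the transmembrane and other liver trypsin-like proteases 0 of 11 passed in either pool. The member with the widest difference was PLG, plasminogen, at 0.70 in TRa1 and 0.95 in TRb1. In the EGF receptor family and its ligands 0 of 10 passed, EGFR included. Of all features 2.83% passed in TRa1 and 0.871% in TRb1, so 0 in lists this short is not read as a result.

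The other protease inhibitors of liver and epithelium held 9 of the 15 list members that passed in the TRa1 pool on T3 and 3 of the 7 in the TRb1 pool. In the TRa1 pool on T3, 8 of 28 rose and 1 fell, with a median difference of 0.12 over the list against 0.01 over all features; of all features 1.82% rose and 1.02% fell. SERPINB9, which inhibits granzyme B, measured 6.55, 6.79 and 6.87 in the control on T3 and 7.71, 8.33 and 8.18 in TRa1. It was higher by 1.33 ± 0.17 (SE) without the block (limma, adjusted p = 0.00077). SERPING1, the C1 inhibitor of the complement system, measured 5.71, 5.82 and 5.39 in the control on T3 and 7.13, 6.62 and 6.83 in TRa1. It was higher by 1.22 ± 0.18 (SE) without the block (limma, adjusted p = 0.0036). SERPINF2, the plasmin inhibitor, also passed without the block, at 0.53 (limma, adjusted p = 0.048).

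SERPINA3 (antichymotrypsin, an acute phase protein) at 0.78, SERPINB1 at 0.55, SERPINA5 at 0.43, ITIH4 at 0.34 and SERPIND1 (heparin cofactor) at 0.33 passed in the TRa1 pool on T3 only when the block was in the model. TFPI, the tissue factor pathway inhibitor, fell by 0.66 in that fit. In the TRb1 pool 3 of 28 rose with the block and 0 fell: SERPINB9 by 0.97, SERPINF2 by 0.48 and SERPINA5 by 0.43, where 0.526% of all features rose and 0.346% fell. SERPINB9 was the 1 member that also passed there without the block (limma, adjusted p = 0.031). The list's median was 0.10 in the TRb1 pool. Each of these differences was smaller than that of SPINK1, and SERPINB9 also rose with T3, by 0.84 averaged over the pools (limma, no block, adjusted p = 0.00038). Between TRa1 and control on vehicle, 2 of the 28 inhibitors were higher without the block, SERPING1 and ITIH4. Of all features 0.307% passed there.

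**Figure D5:**
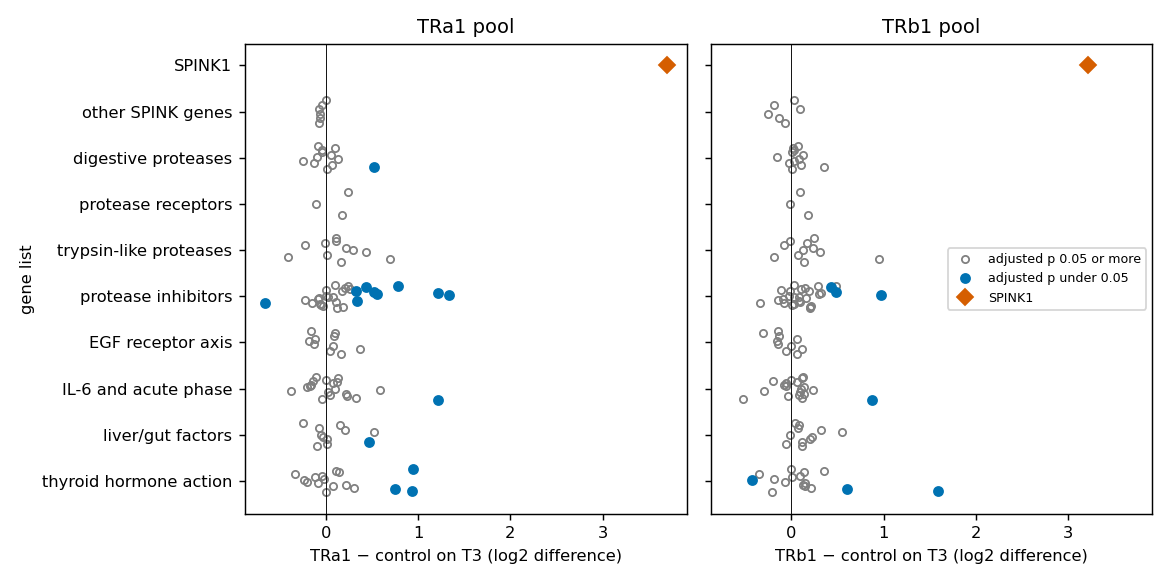
Difference from the control pool on T3 (x axis, log2) for the measured members of 9 gene lists (rows) in the TRa1 and TRb1 pools; filled points passed an adjusted p of 0.05 in the blocked fit. SPINK1 lies at 3.69 and 3.21, the other SPINK genes between -0.25 and 0.09, and the next farthest member to the right is PCK1 in the TRb1 panel at 1.59.

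With the block on T3, 2.83% of all features passed between TRa1 and control and 0.871% between TRb1 and control. Of the 19 measured genes of interleukin 6 signalling and the acute phase, 1 passed between each receptor pool and the control on T3. It was HPX, the heme-binding protein hemopexin, which measured 7.10, 6.61 and 7.04 in the control on T3, 8.24, 7.34 and 8.81 in TRa1 and 8.08, 7.33 and 7.95 in TRb1. The difference was 1.21 ± 0.18 (SE) for TRa1 and 0.87 for TRb1 with the block (limma, adjusted p = 0.0013 and 0.036), and neither passed without it. In replicate 1 against the others 6 of the 19 were higher and 6 lower, against 16.7% of all features higher and 37% lower. The list's median was -0.07, beside -0.11 over all features. The share that was lower did not exceed that of all features. The grouping by function that follows was made after the values were seen and was not tested. The higher ones were the secreted products HAMP (1.68), HP (1.67), ORM2 (1.26), ORM1 (1.19), FGG (0.41) and FGB (0.37). The lower ones included the signalling genes STAT3 (-0.67), JAK1 (-0.65), JAK2 (-0.54), IL6R (-0.48) and IL6ST (-0.27), and the secreted SAA2 (-0.56). HP, haptoglobin, measured 9.77, 7.55 and 8.15 in the control on T3 and 9.90, 8.19 and 9.14 in TRa1, so it was high in replicate 1 as SPINK1 was. Within replicate numbers HP was higher in TRa1 by 0.135, 0.642 and 0.987 and did not pass on T3 with the block (limma, adjusted p = 0.103), while on vehicle its difference of 0.79 passed with the block (limma, adjusted p = 0.0291), as did 2.07% of all features.

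Among transcription factors of liver and gut 0 of 11 passed between TRb1 and control on T3, against 0.871% of all features. Between TRa1 and control on T3 1 of 11 passed, against 2.83%. It was NR5A2, a nuclear receptor of liver and pancreas, at 0.47 with the block (limma, adjusted p = 0.013), and it did not pass without it. In the thyroid hormone action list 3 of 16 rose in TRa1 on T3: THRA by 0.95, PCK1 by 0.93 and CPT1A, which carries fatty acids into mitochondria, by 0.75. Of all features 1.82% rose there, and THRA encodes the receptor that this pool's plasmid carries. In TRb1 on T3, PCK1 rose by 1.59 and CPT1A by 0.61, and DIO1, a deiodinase that converts thyroid hormone, fell by 0.43. THRA in TRa1 and PCK1 in TRb1 passed without the block too.

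T3 changed several of the listed genes, with SPINK1 at 0.09. Averaged over the pools, 6 of the 116 members passed without the block and 17 with it, against 0.423% and 1.69% of all features. CPT1A rose by 0.88 ± 0.11 (SE) (limma, no block, adjusted p = 0.00051), PCK1 by 0.91 ± 0.16 (SE) (adjusted p = 0.013) and THRB by 0.45 (adjusted p = 0.024). The other 3 were SERPINB9, SERPINB1 at 0.63 and the fibrinogen chain FGA at 0.38. With the block HAMP, the iron hormone hepcidin, rose by 0.56, and CEBPB and CEBPA, both liver transcription factors, by 0.62 and 0.24. The others that rose with the block were KLF9 (0.36), FGG (0.35), DIO1 (0.31), HGFAC (0.28), FGB (0.26), SERPIND1 (0.21) and IL6R (0.20). TGFA, a ligand of the EGF receptor, fell by 0.29.

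In the RefSeq gene order, the 5 genes on either side of SPINK1 were looked up, and 6 of the 10 were measured: STK32A, DPYSL3 and JAKMIP2 on one side and SCGB3A2, C5orf46 and SPINK14 on the other. On T3 they differed from the control by -0.14 (C5orf46) to 0.34 (JAKMIP2) in the TRa1 pool and none passed. In the TRb1 pool JAKMIP2 measured 4.82, 4.32 and 3.99 against 3.78, 3.57 and 3.53 in the control. It was higher by 0.75 ± 0.16 (SE) with the block (limma, adjusted p = 0.036) and did not pass without it (adjusted p = 0.524). The call was kept in 1 of 12 blocked alternatives, and lost with the low-value filter, array weights or all features. The other 5 differed by -0.07 to 0.23 in the TRb1 pool, and 0 of 5 passed.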

How the data were processed

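Total RNA (200 ng per array) from the 18 HepG2 samples was labelled with a whole-transcript protocol, per the labels' protocols. The authors deposited 1 table of log2 expression values, for which the submitters' processing notes name RMA and R 2.7.1; probe set summarisation settings are not given in the sources used here. RMA as usually run brings the arrays' probe signals to 1 distribution, so differences are relative to the other features, and low levels are compressed. The values were used as deposited. Of 32321 features, 20546 had a gene symbol (19158 of 1 gene, 1388 of several) through the platform annotation, and only these were tested.

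Differences were fitted with limma 3.58.1 in R 4.3.3 (lmFit, eBayes, 6 group means over 18 arrays), with Benjamini-Hochberg adjustment over 20546 features and a threshold of 0.05. A second fit added the replicate number as a block. Same-numbered samples deviated together: the correlation of their deviations from the group means exceeded 0.1 in all 45 pairs (lowest 0.259, median 0.597). Between differently numbered samples it ran from -0.654 to 0.455 (90 pairs, median -0.483), so the ranges overlapped. The numbers in the labels were taken to pair the samples. Whether this rests on replicate 1 alone was not tested. Single values of SPINK1 used exact permutation tests. The scripts were tested on simulated data. The number of arrays limits the precision. Alternatives were a filter on features below the 25th percentile, array weights, median-centred arrays, a trended robust prior, all 32321 features, the compared groups only, and leaving out each array or replicate number.

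Genes were named by rule: SPINK1, called list members (otherwise up to 4 with the largest difference), the 10 highest and 5 lowest by likeness, THRA and THRB. SPINK1 and the gene lists were chosen with earlier results of these data known, so they are no independent evidence. TAP2 was named after its values were seen. Of the 135 list entries, those without a matching single-gene feature were not analysed here. Promoters came from RefSeq (GRCh38.p14).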

Additional observations from a re-analysis of the deposited data

Results flagged for a closer look

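The response of SPINK1 to T3 had opposite signs between repeats. In the 3 pairs of replicate 1, one per pool, the T3 array was lower than the vehicle array each time, with a mean of -0.16 on the log2 scale. In the 6 pairs of replicates 2 and 3 the T3 array was higher each time, with a mean of 0.214. The split was noticed after the values were seen, and the difference between the repeats was not tested. The same repeat also had the highest SPINK1 level of every group.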

How the results depend on the processing

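The differences of SPINK1 between each receptor pool and the control kept their direction under every alternative run. On vehicle the same arrays chose the gene, so the direction kept there supports nothing. On T3 the same pools were measured, so the direction and the calls there are not independent of that choice. The T3 responses and the TRb1 minus TRa1 differences, which did not pass in limma, changed sign under some, the T3 response over the pools in 11 of 54. SPINK1, TRa1 minus control on T3: without the block it was 3.693 and did not pass; it passed with array weights (3.4896, limma, adjusted p = 0.0347) and with the replicate number as a block (3.693, adjusted p = 2.67e-05), alone or together with the low-value filter (3.693), array weights (3.6519) or all features (3.693). Leaving out 1 array or replicate number gave 2.7829 to 4.1762 without the block, where it passed only without replicate 1, and 3.1563 to 4.0002 with it, where all 9 settings passed. SPINK1, TRb1 minus control on T3: 3.2142 without the block did not pass; with the block it passed alone (3.2142, limma, adjusted p = 0.00031) and with the filter (3.2142), array weights (3.0915) or all features (3.2142). The leave-out ranges were 2.241 to 3.8395 without the block, passing only without replicate 1, and 2.6144 to 3.6576 with it, where 8 of 9 passed and the setting without replicate 2 did not. The descriptive vehicle differences ranged from 2.9504 to 4.5013 for TRa1 and 2.3455 to 4.1456 for TRb1. With a replicate number left out, the paired T3 response of SPINK1 over the pools ranged from 0.0175 to 0.2144 and was highest without replicate 1 (0.2144), where all pairs left had 1 sign and so fixed the p of the permutation test. The receptor arrays' excess on T3 (3.4536) had an exact permutation p of 0.0238 over all 9 arrays and 0.0741 within replicate numbers. Each was the smallest p its arrangements allow, and neither is independent of the choice of the gene.

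Counts depended on the block. List members called between TRa1 and control on T3 numbered 4 without the block (leave-outs 0 to 4; 0 from the compared groups alone) and 15 with it (leave-outs 5 to 14; with the filter 16, array weights 17, all features 14). Between TRb1 and control on T3 they numbered 2 (leave-outs 0 to 1; all features 0; compared groups alone 0) and 7 with the block (leave-outs 0 to 6; filter 9, array weights 6, all features 4). For T3 minus vehicle over the pools they numbered 6 (leave-outs 1 to 7; without the TRa1 pool 2, without the TRb1 pool 1) and 17 with the block (leave-outs 7 to 16; filter 17, array weights 18, all features 13). Of all features, between TRa1 and control on T3 89 passed without the block (9 to 222 over alternatives) and 582 with it (93 to 702); between TRb1 and control 32 (0 to 60) and 179 (25 to 239); for T3 over the pools 87 (8 to 142) and 347 (103 to 417). The 10 genes most like SPINK1 shared 4, 5, 5 or 6 members with the alternative rankings. With 3 arrays per group and the excess of replicate 1, the unblocked fit had an SE of 1.07 for SPINK1.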
